A study of Homo sapiens with 4 samples.

Results

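Epithelial-mesenchymal transition (EMT) genes were examined in HCT116 cells, an established human colorectal carcinoma line, after transfection with small interfering RNA (siRNA). The 10 genes come from a list of transition factors and markers, chosen with earlier results of these data known. They were matched by symbol among the 58735 gene identifiers of the tables, and all 10 were found. They are ZEB1, ZEB2, SNAI1, SNAI2, TWIST1, VIM, FN1, CDH2, ESRP1 and ESRP2. The comparison asked how RNA levels changed when KIF26B, a member of the kinesin family, was targeted. There were 4 poly(A) RNA libraries, all from cells collected 48 h after transfection. Of these, 2 carried the label control siRNA and 2 the label KIF26B siRNA. The study used more than one KIF26B siRNA, and the column headings of the libraries labelled KIF26B siRNA read K_KD1_2 and K_KD2. These names may mark different siRNAs, in which case the pair are not replicates of a single siRNA; no label says so outright. Nor do the sources used here say whether the replicates were separate cultures, so a p-value measures only the spread between these libraries. In bulk RNA, fewer cells of a type and less RNA per cell cannot be told apart.

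EMT is the programme by which epithelial cells loosen their junctions and take on a migratory, mesenchymal form. The zinc-finger factors of the SNAI and ZEB families and the basic helix-loop-helix factor TWIST1 bind E-box motifs and repress epithelial genes such as CDH1, which encodes E-cadherin. Vimentin (VIM), fibronectin (FN1) and N-cadherin (CDH2) are the usual mesenchymal markers, while ESRP1 and ESRP2 are RNA-binding proteins that keep transcripts in their epithelial splice forms and are lost in many mesenchymal cells.

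The values are FPKM (fragments scaled to exon length and to library size), and their steps gave the library sizes the authors divided by, 18068934 to 24673739 reads, which are taken here as depth. Reads recovered gene by gene summed to more, 20953375 to 27041205, so reads per gene are approximate. The targeted gene was low everywhere, and it did not separate the groups. KIF26B stood at 0.110 and 0.205 FPKM in the control libraries, at 0.140 in the library labelled KIF26B siRNA replicate 1 and at 0.0307 in the library labelled KIF26B siRNA replicate 2 (31, 73, 43 and 8 reads). Replicate 1 therefore lay between the control values, and every direction given here is one between labelled groups. The median absolute log2 difference was 0.0733 between the control libraries and 0.280 between the libraries labelled KIF26B siRNA. Reads of mitochondrial genes came to 6.83% and 6.89% of these library sizes in controls against 9.68% and 8.18%, and their part in the results was not tested. The epithelial label was matched by KRT8, KRT18, KRT19, EPCAM and CDH1, each above 17 FPKM in every library, although CDX1 was listed at 0 and KRT20, VIL1 and CDH17 had a mean under 1 FPKM. None of 6 leukocyte markers and none of the 4 endothelial markers found reached a mean of 1 FPKM, and their summed levels were 0.386 to 0.674 and 0.114 to 0.437 FPKM. Of 9 fibroblast markers, 8 were below a mean of 1 FPKM; COL1A1 stood at 4.74 to 8.69 FPKM, and the defining genes COL1A2, DCN, LUM, PDGFRA and FAP were at or near 0. The fibroblast list summed to 7.41 and 7.19 FPKM in controls and to 4.93 and 8.83 FPKM in the other libraries.

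The control cells expressed the epithelial splicing factors well above the mesenchymal markers FN1, VIM and CDH2. Control means of other mesenchymal genes ran from 0 (POSTN) to 122 FPKM (S100A4), some of them above ESRP1. In descending order of the control mean, the levels were ESRP1 (28.2 ± 0.228 FPKM, SD, n = 2), ESRP2 (9.58 ± 0.316), SNAI1 (8.30 ± 0.446), FN1 (2.86 ± 0.00203), ZEB1 (0.959 ± 0.118), TWIST1 (0.877 ± 0.141), SNAI2 (0.875 ± 0.0373), VIM (0.473 ± 0.00186), CDH2 (0.0339 ± 0.0248) and ZEB2 (0.00344 ± 0.00199). Neighbours in this order did not overlap, except that ZEB1 overlapped TWIST1 and TWIST1 overlapped SNAI2. The group means of the libraries labelled KIF26B siRNA kept this order from ESRP1 down to TWIST1, with ZEB1 and TWIST1 overlapping, and SNAI2 lay below VIM in both libraries. SNAI1 was thus the most abundant of the 5 EMT transcription factors in every library, and ZEB2 the least.

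**Figure D1:**
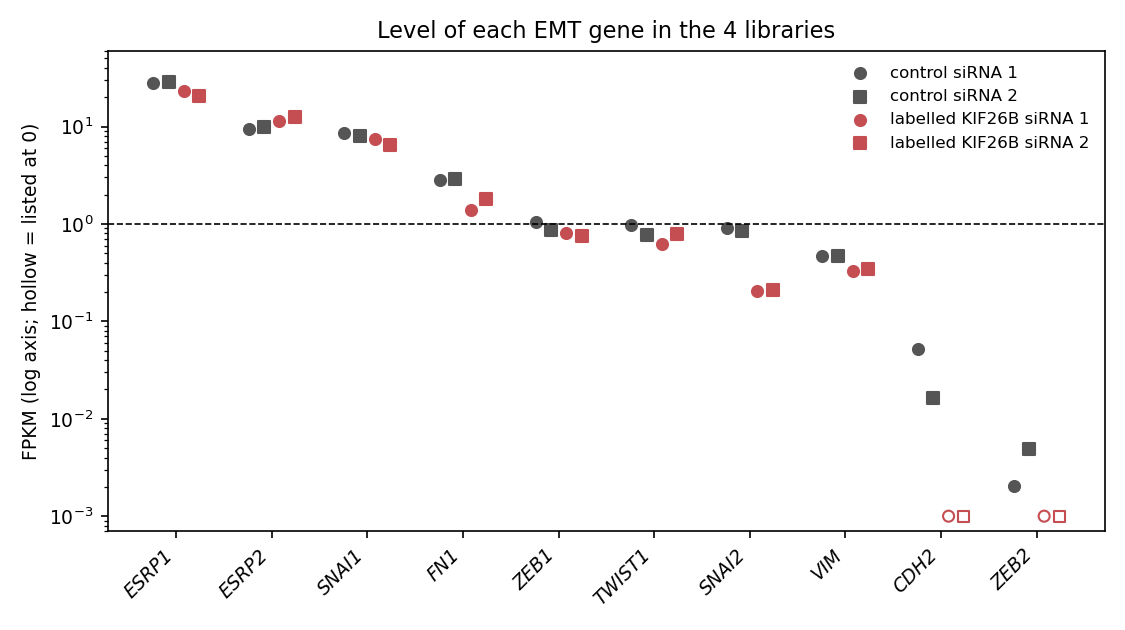
Level of each of the 10 EMT genes in FPKM on a log axis, 1 point per library (grey, control siRNA; red, labelled KIF26B siRNA; circle, replicate 1; square, replicate 2). Hollow points at the foot are values listed at 0, and the dashed line marks 1 FPKM, with ESRP1, ESRP2, SNAI1 and FN1 above it in all 4 libraries.

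Of the 10 genes, 8 had at least 10 reads in every library. Of these 8, 6 were lower in both libraries labelled KIF26B siRNA than in both controls, ESRP2 was higher in both, and TWIST1 overlapped. Among all 18698 genes with at least 10 reads in 2 libraries, 26.1% were lower without overlap and 24.2% higher. The 10 genes were chosen with earlier results of these data known, so such counts give no independent support. ZEB2 and CDH2 had too few reads to be counted. SNAI2 stood at 24.0% of its control mean, FN1 at 55.7%, ESRP1 at 77.5% and ESRP2 at 125.1%. No gene of the 10 passed an adjusted p of 0.05. The main test was limma on log2(FPKM + 1) over the 14523 genes whose mean reached 1 FPKM, a scale that understates the change of low genes. Only ESRP1, ESRP2, SNAI1 and FN1 passed that filter. FN1 and ESRP1 were lower at an unadjusted P below 0.05, as were 8.68% of all genes tested, and no gene of the 4 was higher, against 7.74% of all. None passed the limits the study set for its own calls, an unadjusted P below 0.05 with an absolute log2 difference above 1, which 1.42% of all genes did. At an adjusted p below 0.05 limma called 0% of all genes, with a smallest adjusted p of 0.242.

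A second fit reached the lower genes. Whole reads were recovered from the FPKM values and fitted by limma-voom over the 18698 genes with at least 10 reads in 2 libraries, which include the 8 genes counted here. SNAI2, FN1 and ESRP1 were lower at an unadjusted P below 0.05, as were 9.02% of genes, and none of the 8 was higher, against 7.34%. SNAI2 alone also had an absolute log2 difference above 1, a pair of limits that 4.12% of genes passed. Limma-voom called 0% of genes at an adjusted p below 0.05. The median log2 difference of the 8 genes was −0.34, and that of all genes in this fit was −0.01. For any one gene, exact two-sided permutation over 2 against 2 libraries has a smallest p of 0.333.

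**Figure D2:**
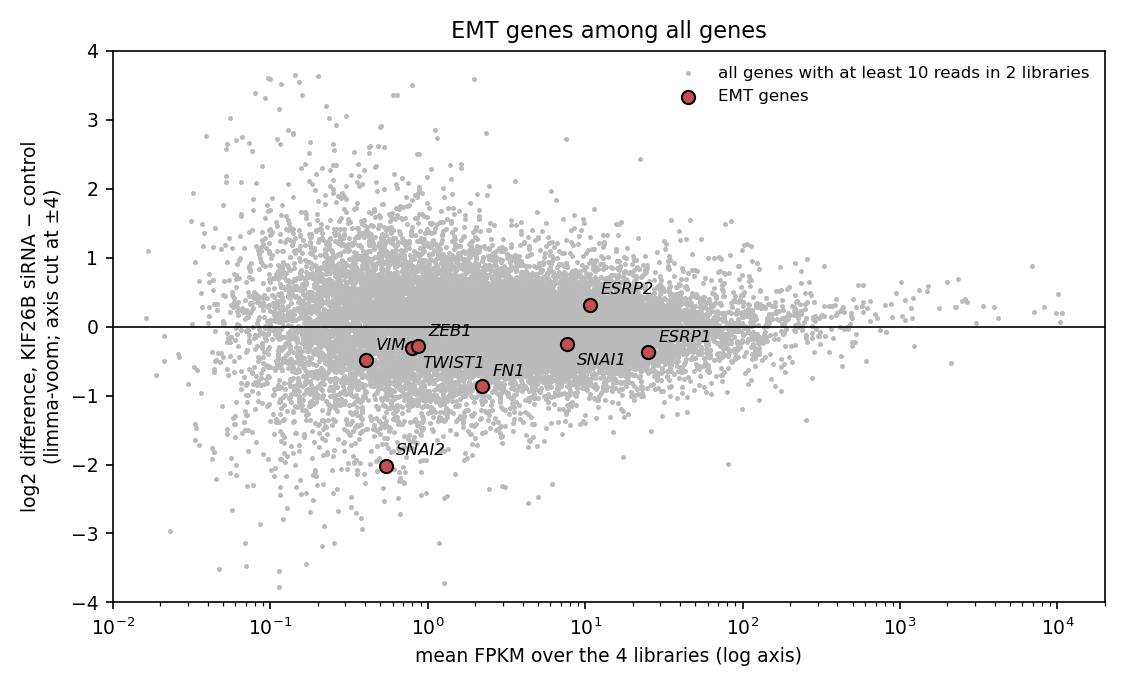
Log2 difference between libraries labelled KIF26B siRNA and control siRNA from limma-voom (vertical axis) against mean FPKM over the 4 libraries on a log axis, with 1 point per gene for the genes having at least 10 reads in 2 libraries. The 8 EMT genes in the fit are named: SNAI2 lies at −2.02 and FN1 at −0.86, ESRP2 is the one above 0, and all lie within the cloud of other genes.

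SNAI2, the Slug repressor, showed the largest relative difference of the 8 genes with at least 10 reads in every library. Its level was 0.901 and 0.848 FPKM in controls (60 and 71 reads) and 0.207 and 0.212 FPKM in the libraries labelled KIF26B siRNA (15 and 13 reads). The 2 values within each group lay close together and the groups were far apart. The read rate was 0.2401 of that in controls, with an exact 95% interval of 0.154 to 0.363 that covers counting error only. Its log2 difference was −2.02 ± 0.359 (SE) in limma-voom, with an unadjusted P below 0.05 and an adjusted p of 0.179. Without the filter, which SNAI2 did not pass, limma on log2(FPKM + 1) gave −0.63 ± 0.0626 and an adjusted p of 0.2496, and 6.31% of 34638 genes were lower at an unadjusted P below 0.05. The SE in that fit was close to the 0.0606 of ZEB2, which had almost no reads, so it says little about how well the SNAI2 libraries agree. With each library left out in turn, the log2 difference of SNAI2 ranged from −0.65 to −0.61.

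SNAI1, the Snail repressor and close relative of SNAI2, differed much less. It measured 8.61 and 7.98 FPKM in controls and 7.496 and 6.40 FPKM in the libraries labelled KIF26B siRNA, or 83.8% of the control mean. The highest of the latter lay just below the lower control. Limma gave a log2 difference of −0.23 ± 0.133 (adjusted p = 0.450). The ratio of SNAI1 to SNAI2 in FPKM was 9.56 and 9.41 in controls, and 36.2 and 30.2 in the libraries labelled KIF26B siRNA.

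ZEB1, a homeobox repressor of epithelial genes, measured 1.04 and 0.876 FPKM in controls and 0.806 and 0.749 FPKM in the libraries labelled KIF26B siRNA. The groups were separated by less than the gap between the controls (limma-voom log2 difference −0.29 ± 0.222, adjusted p = 0.565). Its relative ZEB2 was almost absent, with 1 and 3 reads in controls and 0 reads in both other libraries, so no difference was detectable at this depth. TWIST1 measured 0.977 and 0.777 FPKM in controls and 0.622 and 0.790 FPKM in the libraries labelled KIF26B siRNA, with 27 to 39 reads per library. Its groups overlapped (limma-voom log2 difference −0.31 ± 0.357, adjusted p = 0.709).

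ZEB1 is shown here with one of its 7 listed start sites because this 300-base window carries the most E-boxes of the core CACCTG among the promoter windows available for 5 of the 10 genes. The windows run from 250 bases before to 50 after a start, are taken from RefSeq on GRCh38.p14, and were searched on both strands. CACCTG occurs in 20.6% of 35116 such windows. It was found in 2 of the ZEB1 windows and in none of those of ZEB2, VIM, FN1 or CDH2, which is a statement about letters in these windows alone. Capitals mark the motif at positions −242, −85 and 33 from the start, in either orientation (chr10:31318966-31319265, plus strand).
ZEB1: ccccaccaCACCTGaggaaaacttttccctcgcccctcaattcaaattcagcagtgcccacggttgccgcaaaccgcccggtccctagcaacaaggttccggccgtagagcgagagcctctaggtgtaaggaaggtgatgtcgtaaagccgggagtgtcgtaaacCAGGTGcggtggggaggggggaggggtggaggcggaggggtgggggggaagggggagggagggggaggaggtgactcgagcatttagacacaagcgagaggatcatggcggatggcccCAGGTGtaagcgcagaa

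Among the mesenchymal markers FN1, the matrix glycoprotein bound by integrins, was the one above 1 FPKM. It measured 2.86 FPKM in both controls (972 and 1223 reads) and 1.40 and 1.78 FPKM in the libraries labelled KIF26B siRNA (519 and 558 reads). Both of the latter lay well below both controls, which were nearly equal. Limma gave a log2 difference of −0.58 ± 0.131 (adjusted p = 0.247), and limma-voom gave −0.86 ± 0.166 (adjusted p = 0.183). The read rate was 0.551 of the control rate, with an exact 95% interval of 0.512 to 0.593 for counting error. With either control left out the log2 difference stayed at −0.58, in fits that leave a single control library.

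The FN1 promoter window is given because FN1 showed the largest relative difference among the genes with an available window and at least 10 reads in every library. Capitals mark a cAMP-response-element core, TGACGTCA, at position −183 and a CCAAT box at position −162, which do not overlap (chr2:215436019-215436318, minus strand). TGACGTCA was found in 1.85% and CCAAT in 34.6% of all windows of this length, on either strand.
FN1: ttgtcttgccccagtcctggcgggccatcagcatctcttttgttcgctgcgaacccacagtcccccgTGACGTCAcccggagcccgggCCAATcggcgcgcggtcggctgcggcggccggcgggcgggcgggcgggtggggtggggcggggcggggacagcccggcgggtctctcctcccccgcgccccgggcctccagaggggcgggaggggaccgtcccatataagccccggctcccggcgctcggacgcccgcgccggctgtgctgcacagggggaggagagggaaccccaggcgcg

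VIM, the intermediate filament protein of mesenchymal cells, was low in HCT116 cells. It measured 0.474 and 0.471 FPKM in controls and 0.327 and 0.343 FPKM in the libraries labelled KIF26B siRNA, at 32 to 60 reads per library. The groups did not overlap, but limma-voom gave a log2 difference of −0.49 ± 0.300 with an adjusted p of 0.467. CDH2 was lower still, at 0.0515 and 0.0164 FPKM in controls and listed at 0 in both other libraries. A count of 0 there allows up to 0.0142 and 0.0168 FPKM, limits that rest on an inferred gene length. Only the larger limit reaches the second control, and with so few reads no fold is given. Of VIM exon bases 12.7% are shared with VIM-AS1 on the opposite strand, of ZEB1 exon bases 4.58% with ZEB1-AS1, and of ZEB2 exon bases 4.97% with ZEB2-AS1. ESRP2 shares 4.37% of its exon bases with NFATC3, also on the opposite strand. Genes without a symbol on the opposite strand share 11.96% of VIM, 7.06% of TWIST1, 3.69% of SNAI2 and 3.58% of CDH2 exon bases. On the same strand, ZEB2 shares 11.34% with AC009951.1 and ESRP2 2.18% with a gene without a symbol. Whether the counting used strand is not given in the sources used here, so reads in these stretches are uncertain. Strand would not separate those shared on the same strand. ZEB1-AS1 measured 0.904 and 0.878 FPKM in controls and 1.06 and 1.78 FPKM in the other libraries (log2 difference 0.34, limma adjusted p = 0.427). VIM-AS1 stayed below 0.334 FPKM, ZEB2-AS1 was listed at 0 in all 4 libraries, and FN1-DT was listed above 0 only in control replicate 2.

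The 2 epithelial splicing regulators lay on opposite sides of their controls. ESRP1 measured 28.1 and 28.4 FPKM in controls and 23.0 and 20.8 FPKM in the libraries labelled KIF26B siRNA, and the groups did not overlap. Limma gave a log2 difference of −0.36 ± 0.118 (adjusted p = 0.289). ESRP2 measured 9.36 and 9.81 FPKM in controls and 11.3 and 12.7 FPKM in the libraries labelled KIF26B siRNA. This was higher in both, with a log2 difference of 0.29 ± 0.122 that did not pass (adjusted p = 0.339). The ESRP1 to ESRP2 ratio was 2.999 and 2.90 in controls against 2.03 and 1.64, while the sum of both was 37.4 and 38.2 FPKM against 34.3 and 33.4 FPKM. The log2 difference of ESRP1 was −0.36 without control replicate 1 and −0.35 without control replicate 2, in fits that leave a single control library.

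**Figure D3:**
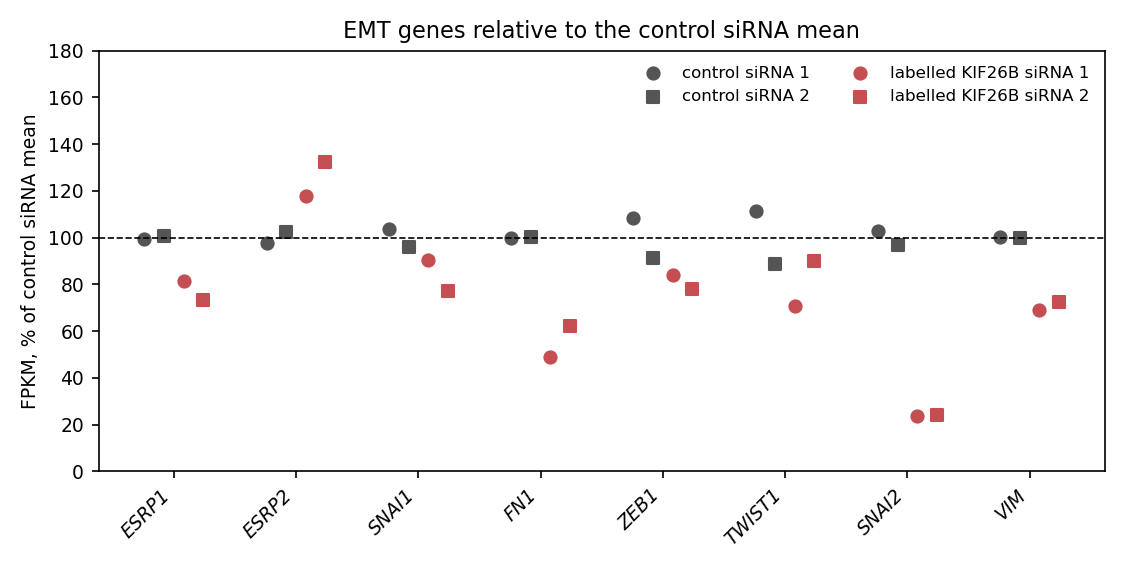
FPKM of the 8 EMT genes with at least 10 reads in every library, as a percentage of the mean of the 2 control siRNA libraries (dashed line at 100%), 1 point per library. Both SNAI2 points of the libraries labelled KIF26B siRNA lie near 24% and both FN1 points between 49.0% and 62.3%, while both ESRP2 points lie above the controls and the TWIST1 points overlap them.

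On the genomic map (RefSeq, GRCh38.p14) SNAI1 spans 49982980 to 49988886 of chromosome 20 and TWIST1 19113047 to 19117636 of chromosome 7. FN1 spans 215360865 to 215436068 and ZEB2 144384081 to 144520119 of chromosome 2. VIM spans 17228241 to 17237593 and ZEB1 31318417 to 31529804 of chromosome 10. SNAI2 spans 48917598 to 48921429 and ESRP1 94641174 to 94707466 of chromosome 8. ESRP2 spans 68229033 to 68236127 of chromosome 16 and CDH2 27932879 to 28177130 of chromosome 18. All values are sums over a gene's exons and do not separate exons or isoforms.

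Further gene lists of the EMT pathway were counted in the main fit. There 8.68% of all genes tested were lower and 7.74% higher at an unadjusted P below 0.05. Of the genes named from them with an unadjusted P below 0.05, ITGAV, ST14 and EHF alone kept it when either control library was left out, and none passed an adjusted p of 0.05. Of 13 other EMT transcription factors 5 passed the filter, of which 1 was higher at an unadjusted P below 0.05 and none lower, with a median log2 difference of 0.33 against −0.01 for all genes tested. The one was TCF3, an E-protein partner of TWIST1 that also binds E-boxes (21.3 and 21.6 against 26.8 and 30.2 FPKM; log2 difference 0.39, limma adjusted p = 0.281). All 14 cofactors and turnover genes of SNAI and ZEB proteins passed the filter, of which 1 was lower and none higher (median −0.14). The one was KDM1A, the histone demethylase recruited by SNAI1, at 40.2 and 41.9 FPKM against 27.9 and 28.7 FPKM (log2 difference −0.52, limma adjusted p = 0.242).

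Beyond VIM, FN1 and CDH2, mesenchymal genes showed no common direction. Of 37 such genes 18 passed the filter, and the median log2 difference was 0.17. At an unadjusted P below 0.05, 3 were lower and 3 higher, against 8.68% and 7.74% of all genes tested. Those of largest difference were S100A4, a calcium-binding protein (119 and 125 against 262 and 186 FPKM, log2 difference 0.85, limma adjusted p = 0.248), ACTA2, smooth muscle actin (0.633 and 0.599 against 2.25 and 1.34 FPKM, log2 difference 0.77, limma adjusted p = 0.255), and VCAN, the matrix proteoglycan versican. VCAN was lower, at 18.1 and 18.8 against 13.6 and 10.9 FPKM (log2 difference −0.56, limma adjusted p = 0.258).

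Of 9 fibronectin receptor genes 5 passed the filter, and the median log2 difference was −0.32. At an unadjusted P below 0.05, 3 were lower and none higher, against 8.68% and 7.74% of all genes tested. ITGAV, the integrin alpha-v chain, measured 17.2 and 16.4 FPKM in controls and 9.41 and 9.07 FPKM in the libraries labelled KIF26B siRNA (log2 difference −0.80, limma adjusted p = 0.242). ITGB5, a beta chain that pairs with it, measured 27.2 and 28.2 against 16.5 and 17.1 FPKM (log2 difference −0.69, limma adjusted p = 0.242). ITGA5, which with ITGB1 forms the classical fibronectin receptor, measured 20.6 and 20.9 against 16.3 and 16.7 FPKM (log2 difference −0.32, limma adjusted p = 0.295). The groups did not overlap for any of the 3. Of all genes with at least 10 reads in 2 libraries, 26.1% were lower without overlap. ITGB1 itself overlapped, at 120 and 119 against 107 and 120 FPKM.

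On the epithelial side, 44 of 47 genes passed the filter, and the median log2 difference was −0.01. At an unadjusted P below 0.05, 8 were lower and 4 higher, against 8.68% and 7.74% of all genes tested. ST14, the membrane protease matriptase, measured 75.3 and 78.2 against 42.6 and 37.4 FPKM (log2 difference −0.93, limma adjusted p = 0.242). EHF, an epithelial ETS factor, was higher, at 6.81 and 6.36 against 15.8 and 11.8 FPKM (log2 difference 0.95, limma adjusted p = 0.242). PARD6B, a polarity protein, measured 13.0 and 12.7 against 5.98 and 9.45 FPKM (log2 difference −0.69, limma adjusted p = 0.290). Of 10 colorectal epithelial markers 6 passed the filter. At an unadjusted P below 0.05, 2 of them were lower and none higher, against 8.68% and 7.74% of all genes tested. These were the keratins KRT8 and KRT18, at 74.4% and 70.3% of their control means (limma adjusted p = 0.255 and 0.242). The keratin KRT19 stood at 109.9% without overlap, and EPCAM at 106.7% with overlap. CDH1 measured 24.1 and 23.9 FPKM in controls and 17.7 and 20.2 FPKM in the libraries labelled KIF26B siRNA, without overlap (log2 difference −0.33, limma adjusted p = 0.316). CDH3, P-cadherin, was higher at 30.5 and 29.7 against 38.2 and 40.8 FPKM (log2 difference 0.38, limma adjusted p = 0.273), and 4 of the 6 cadherins listed beside CDH2 were below the filter.

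Genes tied to ESRP function were counted last. Of 8 other EMT splicing regulators all passed the filter, with a median log2 difference of −0.28. At an unadjusted P below 0.05, 2 were lower and none higher, against 8.68% and 7.74% of all genes tested. QKI, an RNA-binding protein of mesenchymal splicing, measured 3.49 and 3.36 against 1.68 and 1.90 FPKM (log2 difference −0.67, limma adjusted p = 0.242). RBFOX2 measured 19.6 and 19.1 against 14.99 and 12.3 FPKM (log2 difference −0.48, limma adjusted p = 0.274). Among 9 ESRP splicing targets ARHGEF11 was lower in the main fit (10.5 and 9.72 against 7.80 and 7.47 FPKM, log2 difference −0.36, limma adjusted p = 0.281), and the other 8 did not pass. In limma-voom ARHGEF11, FGFR2 and MAGI1 were lower at an unadjusted P below 0.05 and none higher, against 9.02% and 7.34% of all genes in that fit. FGFR2 measured 5.38 and 4.91 against 4.01 and 2.39 FPKM (limma-voom log2 difference −0.72, adjusted p = 0.277). FPKM values are totals per gene and say nothing of splice forms.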

How the data were processed

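Poly(A) RNA from 4 HCT116 libraries was sequenced by the authors as 150 bp paired reads. The deposited tables hold 1 FPKM value per gene and library, made by the authors with HISAT2 2.0.5 and featureCounts 1.5.0-p3 per the labels. The labels name hg38 and the methods of the study hg19. The tables hold no coordinates. Of 58735 identifiers 56513 matched a GENCODE GRCh37 symbol, and positions and promoter windows are from RefSeq GRCh38.p14. The members and lists were chosen with earlier results of these data known. Named outside the 10 genes were, per list, up to 3 genes of largest log2 difference among those with an unadjusted P below 0.05, with KIF26B, CDH1 and the neighbouring antisense or divergent transcripts. Other genes are given only as checks.

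Values were tested as log2(FPKM + 1) with limma 3.58.1 in R 4.3.3, with no covariates, on genes whose mean reached 1 FPKM, with Benjamini-Hochberg adjustment. Genes under the filter were tested without it. FPKM lie on steps of 1 read, so each library's size (18068934 to 24673739 reads) and each gene's reads were recovered, and the reads were also fitted by limma-voom with those sizes, with at least 10 reads in 2 libraries. That limit was chosen after seeing the data. The script was tested on simulated data. Recovered read counts depend on the gene length inferred, and their sums exceed the library sizes. Intervals cover counting error only.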

Additional observations from a re-analysis of the deposited data

How the results depend on the processing

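Among the EMT genes past the filter, the count lower at an unadjusted P below 0.05 was 2. Of all 14523 genes tested, 1261 were lower in this fit. The count was 1 with the replicate block, which loses ESRP1 (861 of all genes lower), and 1 with a pseudocount of 0.1 (1177 lower). It was 3 (SNAI2, FN1 and ESRP1) with no filter on low values, where 2186 of 34638 genes were lower. Leaving out 1 library gave 0 to 3, with 0 when either control was left out and 3 (SNAI1, FN1 and ESRP1) without the library labelled KIF26B siRNA replicate 1. Among all genes the number called lower also fell with either control left out and rose with either other library left out. These fits leave a single library in a group, so their counts do not describe the EMT genes alone. The count higher was 0, and 1 with no filter on low values (ESRP2). Leaving out 1 library gave 0 to 1. The count past the study's limits was 0, and 1 (SNAI2) in limma-voom on genes with at least 10 reads in 2 libraries, an alternative chosen after seeing the data. The count with an adjusted p below 0.05 was 0. Leaving out 1 library gave 0 to 1, where the 1 was FN1 (adjusted p = 0.0486) without the library labelled KIF26B siRNA replicate 1. In that fit 2507 of 14523 genes passed, against 0 with every library, and the lone remaining library was assumed to vary like the controls. Of 19 named genes with an unadjusted P below 0.05, 3 (ITGAV, ST14 and EHF) kept it without control replicate 1 and the same 3 without control replicate 2. With the replicate block 12 of the 19 kept it. With either library labelled KIF26B siRNA left out, far more of all genes were called than in the main fit, so keeping a call there says little. The 19 all passed the filter of 1 FPKM, which SNAI2 did not, so SNAI2 is not among them. They were picked by this P in these same libraries, so none of these counts is independent support. Deviations of same-numbered libraries from their group means correlated at −0.0031. This cannot show whether they shared a culture or preparation, which the sources used here do not give. No named gene turned its direction under any of these settings. The cause of these shifts was not tested. Reads limit CDH2 and ZEB2 most, and then SNAI2, TWIST1 and VIM. SNAI2 had only 15 and 13 reads in the libraries labelled KIF26B siRNA.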

Other observations

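Among the EMT transcription factors below a mean of 1 FPKM, FOXQ1 and FOXC2, both forkhead factors, had differences of the size of SNAI2. They and SOX4 were singled out after their values were seen. FOXQ1 measured 0.750 and 0.421 FPKM in the control libraries and 0.122 and 0.120 FPKM in the libraries labelled KIF26B siRNA (limma-voom log2 difference −2.09). Its reads were 34 and 24 against 6 and 5. FOXC2 measured 0.176 and 0.294 against 0.0646 and 0.0382 FPKM (limma-voom log2 difference −2.01), with 10 and 21 reads against 4 and 2. Both were lower at an unadjusted P below 0.05 in limma-voom, as were 9.02% of genes. Both met the limit of 10 reads in 2 libraries through the controls alone, so the filter itself favoured a lower value. Neither passed an adjusted p of 0.05, which 0 of 18698 genes did. SOX4, in contrast, measured 13.3 and 13.6 FPKM in controls and 35.0 and 8.18 FPKM in the libraries labelled KIF26B siRNA, which lay on either side of the controls.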
